A study of Mus musculus with 8 samples.

Results

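The 8 libraries of the study fell along a gradient of sensory neuron transcripts that crossed the genotypes, and the comparison described here sets the 4 libraries richest in them against the 4 poorest. Libraries were ranked by the mean log2(TPM + 1) of 5 genes of dorsal root ganglion sensory neurons, Calca, Avil, Scn10a, Scn11a and Mrgprd, where TPM is the authors' expression unit scaled for gene length and library size. The 4 highest of 8 libraries, called rich, were WT replicates 2 and 3 and cKO replicates 2 and 4. The 4 lowest, called poor, were WT replicates 1 and 4 and cKO replicates 1 and 3. Each side therefore held 2 WT and 2 cKO libraries. The 5 ranking genes chose the sides and are given here once, as a description.

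The study measured RNA by sequencing in mouse dorsal root ganglia, with 4 libraries of genotype WT_P60 and 4 of genotype cKO_P60, a conditional deletion of Alyref. Alyref encodes an adaptor that couples newly made mRNA to nuclear export. The sources used here name neither the Cre line, nor the cells it acts in, nor what P60 stands for, and the labels name no sex and no number of animals per library. The design text speaks of 4 sequencing batches on distinct biological replicates, but no label ties a library to a batch or to an animal, so the p-values below measure the spread between libraries and batch cannot be told apart from it.

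Dorsal root ganglia lie beside the spinal cord and hold the cell bodies of the neurons that carry touch, temperature, itch and pain from the body. Small unmyelinated neurons, the nociceptors, are commonly divided into peptidergic cells, which release peptides such as CGRP and substance P, and non-peptidergic cells, many of which carry Mrgpr receptors and the ATP receptor P2X3. Satellite glia wrap each cell body, Schwann cells ensheathe the axons, and macrophages, fibroblasts and vessels fill the space between. The central axons enter the dorsal horn of the spinal cord, whose neurons, astrocytes and oligodendrocytes are not part of a ganglion.

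Ranking scores were 7.22 in WT 2, 5.36 in WT 3, 5.14 in cKO 2 and 4.60 in cKO 4 on the rich side. On the poor side they were 4.06 in cKO 1, 3.70 in WT 4, 3.26 in WT 1 and 2.92 in cKO 3. The boundary thus ran between cKO 4 at 4.60 and cKO 1 at 4.06, and the order was a graded one without a wide gap at the middle. Calca, which encodes the CGRP precursor, had 2657.2, 865.1, 771.7 and 555.2 TPM in the rich libraries, and 482.1, 345.9, 252 and 206.9 TPM in the poor ones, in the same order of libraries. Avil, which encodes the sensory neuron protein advillin, ran from 250.9 TPM in WT 2 to 10.3 TPM in cKO 3. No library changed side in any of 7 other rankings, which used FPKM, CPM or TPM with each of the 5 genes left out in turn.

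WT 2 stands apart from the other libraries. Its Spearman correlation with them was 0.944 to 0.967, against 0.990 to 0.996 among the other 7, and it was the highest of 8 libraries for 5660 of 15089 tested genes. Results are therefore given with and without it. Depth hardly differed, with summed estimated counts between 15522915 and 16482614 in each library. Y-linked transcripts were found in 3 rich and 1 poor libraries, so sex and side were partly aligned over all libraries. Within cKO they were fully aligned, with these transcripts in cKO 2 and cKO 4 and not in cKO 1 and cKO 3. Differences between the sides within cKO therefore cannot be told apart from sex. With a further term for Y-linked transcripts, the median log2 fold change of non-peptidergic nociceptors was 2.34 and that of astrocytes −0.71, against 1.81 and −0.38 without it. Only the WT libraries can separate side from these transcripts, and there WT 2 is the rich library without them. The medians were 2.61 and −0.72 within WT, and 1.01 and −0.06 within cKO. This fit was not made without WT 2, so it does not give a difference freed of sex.

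Markers of the spinal cord were present in all 8 libraries, although the labels name only dorsal root ganglia. On the per-length TPM scale, Slc6a5, the glycine transporter of spinal inhibitory neurons, had 60.8 TPM in WT 2 and 128 to 159.3 TPM in the other 7 libraries. Mog, a protein of central nervous system myelin, had 108.9 TPM in WT 2 and 278.9 to 514.9 TPM in the others. Prph, the intermediate filament of small sensory neurons, had 818.1 TPM in WT 2 and 113.7 to 283.9 TPM elsewhere, and the sensory ATP receptor P2rx3 had 92.6 TPM in WT 2 and 5.35 to 27.3 TPM elsewhere. The defining markers of cord and of ganglion were thus both detected in every library, at levels per length in which Slc6a5 exceeded P2rx3 in each library except WT 2. Sympathetic neurons, which lie close to the ganglia, left almost no trace: Dbh was at most 0.19 CPM, and 1 of the 5 markers passed the filter on low counts. All these are whole-tissue values, in which fewer cells of a type and less RNA per cell cannot be told apart.

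Levels below are CPM, counts scaled to the same library size, with TMM-scaled totals, and log2 fold changes are rich minus poor ± SE from an edgeR fit to the estimated counts with genotype as a covariate. Because the sides were chosen by measured values of the same libraries, no p is given for any gene between them. A gene is called apart when all rich libraries lay on 1 side of all poor libraries and the fitted fold was at least 1.5. With all 8 libraries, 252 of 15089 tested genes (1.67%) were apart and higher in the rich libraries and 22 (0.146%) were apart and lower. Without WT 2 these counts were 145 (0.961%) and 28 (0.186%) of 15081 genes, and 139 higher and 10 lower genes were apart both ways. Genes that follow the ranking genes are bound to appear in such counts, so nothing is read from them. The edgeR fit put 0 genes past an adjusted p of 0.05 in either direction (0%), with and without WT 2, where 1205 and 1370 genes were under an unadjusted p of 0.05. DESeq2 put 34 higher and 4 lower genes past the same threshold with all libraries, and limma on log2(TPM + 1) 0 and 1. The median log2 fold change over all tested genes was −0.0013, and −0.0030 without WT 2.

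The genes of non-peptidergic nociceptors, which detect itch and mechanical pain, were higher in the rich libraries. All 10 tested of 12 listed genes were higher, with a median of 3.52-fold (1.81 on the log2 scale) and of 2.2-fold (1.14) without WT 2, and 5 of the 10 were apart both ways. P2rx3 had 202.1, 50.8, 49.3 and 33.2 CPM in WT 2, WT 3, cKO 2 and cKO 4, and 22.5, 17.2, 13.8 and 10.5 CPM in cKO 1, WT 4, WT 1 and cKO 3. Its 8 levels stood in exactly the order of the ranking and the sides did not overlap, with a log2 fold change of 2.18 ± 0.56 and 1.48 ± 0.24 without WT 2. Nppb, the natriuretic peptide that itch neurons release, had 20.6, 4.45, 3.96 and 2.56 CPM in the rich libraries and 1.58, 0.93, 1.65 and 0.94 CPM in the poor ones, again without overlap. Mrgpra3, an itch receptor, ran from 7.78 CPM in WT 2 to 0.06 CPM in cKO 3, but cKO 4 (0.75 CPM) lay below cKO 1 (0.82 CPM). The interleukin 31 receptor gene Il31ra was also not apart, since WT 1 (2.50 CPM) lay above cKO 4 (1.56 CPM). Lpar3, a lysophosphatidic acid receptor, was apart with 1.82 ± 0.54, and 1.06 ± 0.17 without WT 2. Osmr, the oncostatin M receptor subunit, which other cells also make, differed least of these 10 genes, with 0.36 ± 0.19 without WT 2.

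**Figure D1:**
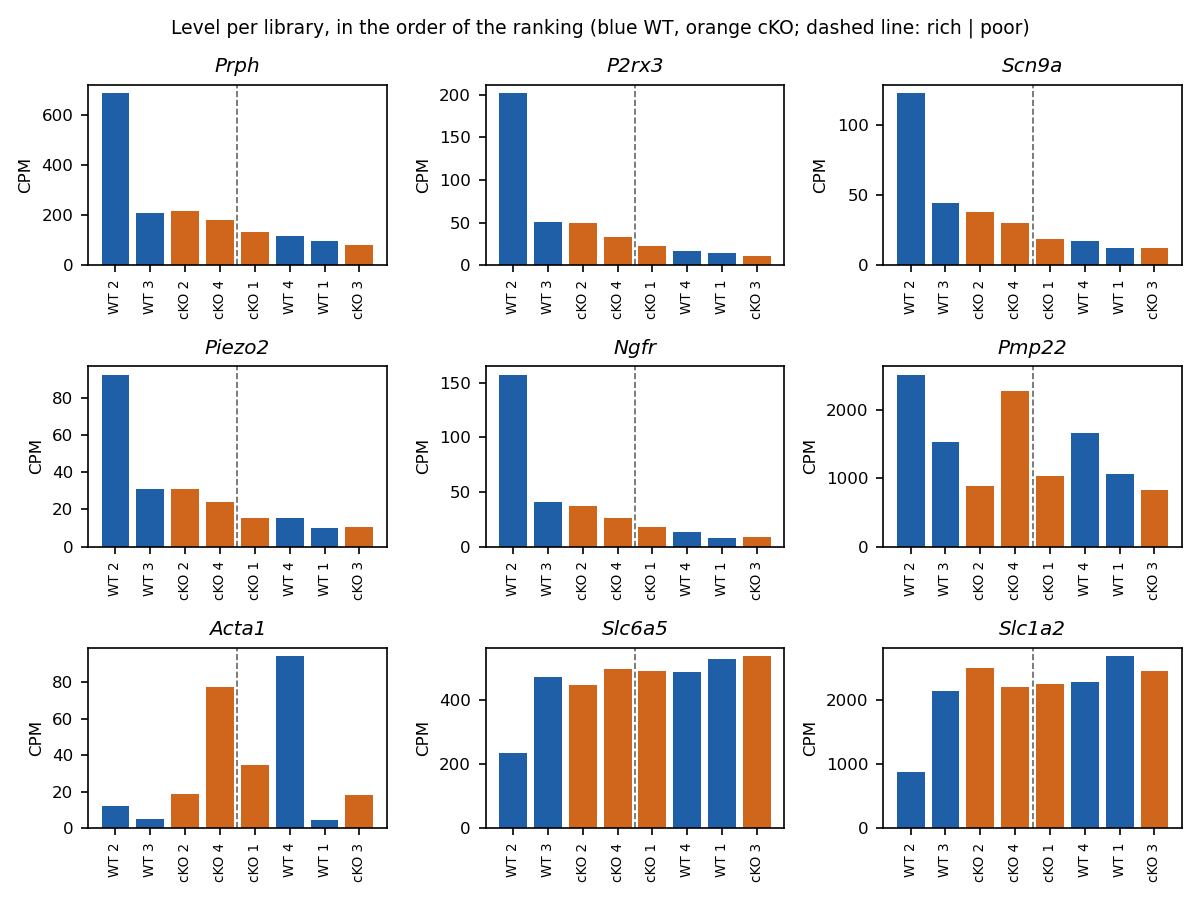
Level in CPM of 9 genes in each library, in the order of the ranking, with WT in blue, cKO in orange and a dashed line between the rich and the poor side. Prph, P2rx3, Scn9a, Piezo2 and Ngfr step down from rich to poor without overlap. Pmp22 is highest in WT 2 and cKO 4, Acta1 is high in cKO 4 and WT 4, and Slc6a5 and Slc1a2 are low in WT 2 only.

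Peptidergic nociceptor genes showed the same difference. All 9 listed genes were tested and higher, with a median of 3.80-fold (1.93 on the log2 scale) and 2.59-fold (1.37) without WT 2, and 5 were apart both ways. Trpv1, the capsaicin receptor, had 69.9, 17.7, 11.5 and 8.75 CPM on the rich side and 9.97, 5.85, 1.45 and 2.07 CPM on the poor side. It overlapped, because cKO 1 lay above cKO 4. Gfra3, the co-receptor of artemin, was apart with 2.31 ± 0.60, and 1.5 ± 0.30 without WT 2. Tac1, the substance P precursor, which spinal neurons also make, was higher by 1.11 ± 0.40 on the log2 scale, and by 0.65 ± 0.20 without WT 2, with cKO 1 (73.7 CPM) above cKO 4 (66.4 CPM). Calcb, the second CGRP gene and no ranking gene, was apart with 1.69 ± 0.46, and 1.09 ± 0.18 without WT 2. Adcyap1, the PACAP precursor, showed little difference, at 0.06 ± 0.13 without WT 2.

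Genes that mark sensory neurons as a class were also higher, nearly all without overlap. All 12 tested of 13 listed genes were higher, with a median of 3.01-fold (1.59) and 2.10-fold (1.07) without WT 2, and 11 were apart with all libraries and 8 without WT 2. Prph had 686.7, 206.5, 214.9 and 178.7 CPM in WT 2, WT 3, cKO 2 and cKO 4, and 130.6, 115.5, 95.1 and 82.6 CPM in cKO 1, WT 4, WT 1 and cKO 3. Every rich library exceeded every poor one, and apart from WT 2 the whole range was less than 3-fold. Isl1, a transcription factor of sensory neurons, was apart with 1.74 ± 0.49, and 1.24 ± 0.31 without WT 2. Prdm12, a regulator without which nociceptors do not form, lies on chromosome 2 (31635026 to 31655795) and ran from 71.4 CPM in WT 2 to 2.24 CPM in WT 1. Its 3 other rich libraries had 15.5, 16.5 and 10.1 CPM, above the poor range of 2.24 to 8.02 CPM. Pou4f1, or Brn3a, was the exception: at 19.9 CPM in cKO 1 and 18.6 CPM in cKO 4 it overlapped, with 0.51 ± 0.17 without WT 2. Runx1, a factor of non-peptidergic neurons, was higher by 1.20 ± 0.49, and by 0.53 ± 0.15 without WT 2, which is under the 1.5-fold minimum.

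Several genes of these lists encode ion channels of sensory endings. Scn9a, the sodium channel Nav1.7 (chromosome 2, 66480080 to 66635114), had 123.1, 44.3, 38.3 and 30.2 CPM on the rich side and 18.9, 17, 12.3 and 12 CPM on the poor side. The order of its 8 libraries was that of the ranking, with 1.84 ± 0.42, and 1.33 ± 0.18 without WT 2. Piezo2, the touch and proprioception channel, had 92.3, 31.2, 30.8 and 24.2 CPM against 15.2, 15.2, 10.3 and 10.6 CPM. Its sides were apart by 1.69 ± 0.40, and 1.17 ± 0.17 without WT 2. Trpa1, the irritant channel (chromosome 1, 14872644 to 14918862), had 35.3, 8.72, 9.52 and 6.62 CPM against 4.36, 3.30, 2.18 and 2.2 CPM, also without overlap. The serotonin-gated channel gene Htr3a was apart with 0.97 ± 0.25 without WT 2. In all, 49 of 15089 tested genes had levels in exactly the order of the ranking over 8 libraries and 5 in exactly the reverse order. Genes that follow the ranking genes are bound to share their order, so nothing is read from these counts.

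**Figure D2:**
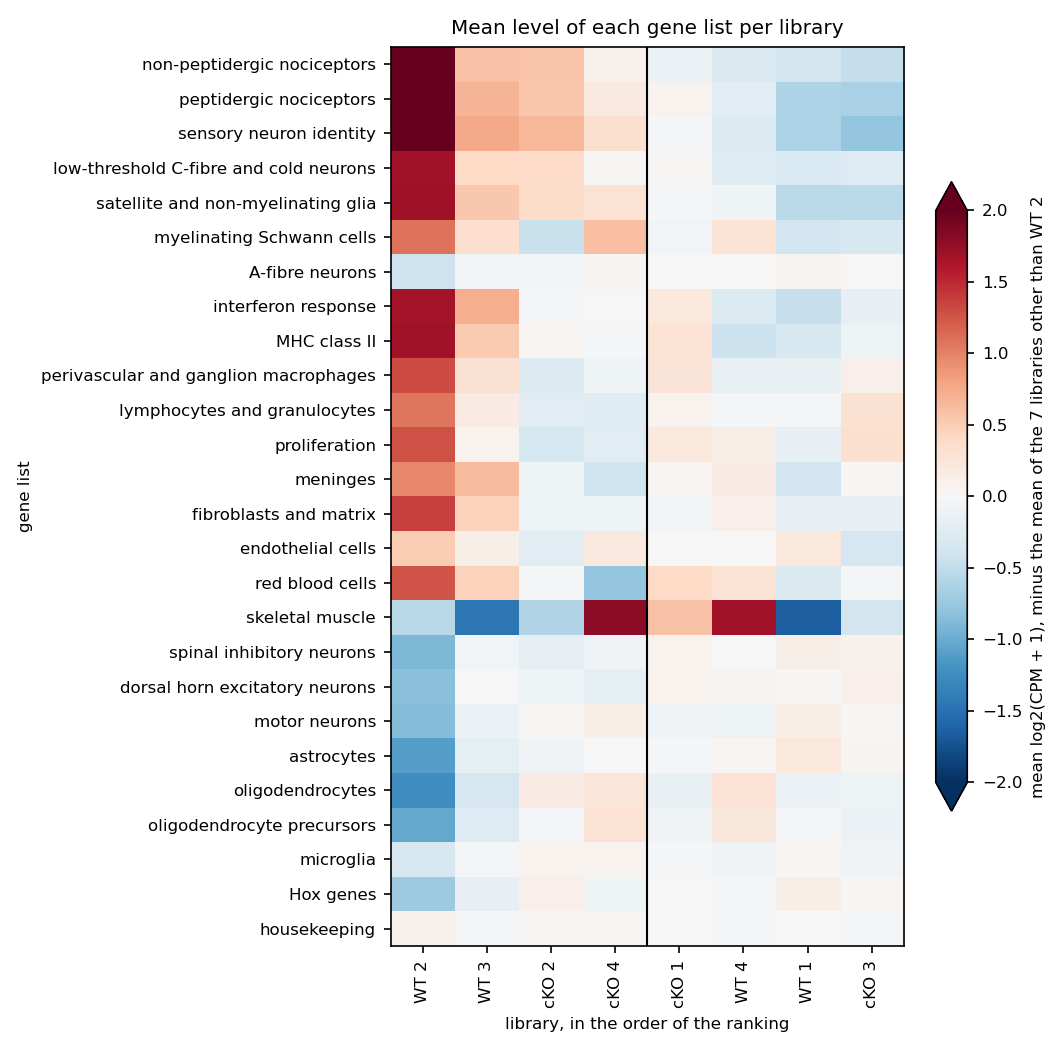
Mean log2(CPM + 1) of 26 gene lists (rows) in the 8 libraries (columns, in the order of the ranking), over all listed genes with values, tested or not. Each row is centred on the mean of the 7 libraries other than WT 2, with the colour scale ending at 2 units. The nociceptor, sensory identity and satellite glia rows grade from rich to poor. The interferon and MHC class II rows are high in WT 2 and WT 3 and slightly raised in cKO 1, and the skeletal muscle row is high in cKO 4 and WT 4.

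Genes of low-threshold C-fibre and cold neurons were also higher, but less regularly. All 6 were higher with and without WT 2, with a median of 1.95-fold (0.96), and 1.38-fold (0.47) without WT 2, and 2 were apart. Th, tyrosine hydroxylase, which marks C-fibre touch neurons, had 56.9, 17.2, 13.7 and 9.81 CPM in the rich libraries and 9.03, 8.71, 9.03 and 7.65 CPM in the poor ones. The poor libraries were level with each other, and the lowest rich library, cKO 4, was just above them. Trpm8, the cold and menthol channel, had 9.23, 2.50, 1.79 and 1.06 CPM against 1.20, 0.68, 0.46 and 0.38 CPM, with cKO 1 above cKO 4. Tafa4, a secreted protein of C-fibre touch neurons, was apart with 1.86 ± 0.52, and 1.25 ± 0.25 without WT 2. Slc17a8, the glutamate transporter VGLUT3, differed by 0.11 ± 0.21 without WT 2.

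The 10 listed markers of large myelinated A-fibre neurons did not follow the gradient as a set. Of 10 tested genes, 9 were lower and 1 was higher in the rich libraries, and the median was −0.15 on the log2 scale, or −0.02 without WT 2, and none was apart. Nefh, the heavy neurofilament, had 845.4, 1284.0, 1723.0 and 1751.1 CPM on the rich side and 1373.5, 1458.5, 1664.7 and 1497.1 CPM on the poor side. The sides overlapped throughout, and WT 2 was the lowest of all. Pvalb, parvalbumin, which marks proprioceptors, was lowest in WT 2 (81.7 CPM) and highest in cKO 4 (140 CPM). Ntrk3, the neurotrophin 3 receptor, differed by −0.02 ± 0.08 without WT 2. Runx3, the proprioceptor factor, was the exception in WT 2, with 2.90 CPM against 0.50 to 0.93 CPM in the other 7 libraries. Most of these genes are also used by spinal neurons, and 8 of the 10 were lowest in WT 2, as spinal markers were. The list therefore does not show what A-fibre neurons themselves did. Slc17a7, which large sensory neurons also make, was not in this list. It was apart, with 1.89 ± 0.40, and 1.33 ± 0.18 without WT 2.

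Markers of satellite and non-myelinating glia, the cells around the neurons and their thin axons, were higher in the rich libraries too. All 7 tested genes were higher, with a median of 2.74-fold (1.45), and 6 of 7 without WT 2, with a median of 1.89-fold (0.92), and 3 were apart both ways. Fabp7, a lipid-binding protein of satellite glia that astrocytes also make, had 369, 126.1, 133.4 and 76.7 CPM in WT 2, WT 3, cKO 2 and cKO 4, and 79.7, 73.9, 35.5 and 47.3 CPM in cKO 1, WT 4, WT 1 and cKO 3. Its only overlap was cKO 1 above cKO 4. Scn7a, a sodium channel of non-myelinating Schwann cells and some sensory neurons, had 235.7, 84.4, 61.4 and 60.1 CPM against 40.8, 35, 32.8 and 32.4 CPM. It was apart and in the exact order of the ranking, with 1.49 ± 0.40, and 0.97 ± 0.12 without WT 2. Ngfr, the p75 neurotrophin receptor (chromosome 11, 95568818 to 95587698), which glia and many nociceptors share, was apart with 2.21 ± 0.59, and 1.51 ± 0.27 without WT 2. Cdh19, a cadherin of the Schwann cell lineage, showed no such difference, at −0.03 ± 0.10 without WT 2, and Erbb3, the neuregulin receptor, was higher by 0.45 ± 0.18.

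Myelinating Schwann cells gave a different picture. Of 11 tested genes, 10 were higher, with a median of 1.58-fold (0.66), and 1.29-fold (0.37) without WT 2, and none was apart with or without WT 2. Pmp22, a membrane protein of peripheral myelin, had 2522.6, 1535.5, 882.9 and 2275.8 CPM in WT 2, WT 3, cKO 2 and cKO 4, and 1041.7, 1664.1, 1072.9 and 830.7 CPM in cKO 1, WT 4, WT 1 and cKO 3. The high libraries were WT 2, cKO 4 and WT 4, and the sides overlapped. Prx, periaxin, was lowest in the rich library cKO 2 (132.4 CPM) and was 324 CPM in cKO 4 and 281.3 CPM in WT 4. Among the 7 libraries other than WT 2, 7 of the 11 genes were highest in cKO 4 or WT 4.

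The same pair of libraries stood out for skeletal muscle and for central myelin. Acta1, skeletal actin, had 77.7 CPM in cKO 4 and 94.4 CPM in WT 4, and 4.68 to 34.7 CPM in the other 6 libraries. The muscle creatine kinase gene Ckm had 61.4 and 62.1 CPM in these libraries and 3.49 to 28.9 CPM elsewhere. All 8 muscle genes were highest in cKO 4, which is rich, or WT 4, which is poor. Their median log2 fold change was −0.51, and 0.89 without WT 4, so that the direction flipped. Of 14 oligodendrocyte genes, 8 were highest in 1 of these libraries once WT 2 was left out. Mog, of central myelin, had 334 CPM in cKO 4 and 358.8 CPM in WT 4, and 86.5 to 288.6 CPM in the other 6 libraries. The median of the list was −0.29, and 0.04 without WT 2, so that its direction flipped.

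Setting each library against WT 2 gives the depth of the gradient. Over the 31 tested genes of the 3 sensory lists, the median level was 31.2% of that in WT 2 in WT 3, 29.6% in cKO 2 and 20.6% in cKO 4. It was 15.8% in cKO 1, 13.8% in WT 4, 9.96% in WT 1 and 10.2% in cKO 3. All 31 genes were highest in WT 2, and the rich side without it spanned 20.6% to 31.2% and the poor side 9.96% to 15.8%. Satellite glia followed with 25.5% to 36% on the rich side and 13.7% to 21.6% on the poor side. The spinal inhibitory neuron list went the other way at 166.1% to 201.6% of WT 2, with 181.2% to 183.6% on the rich side inside that range.

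**Figure D3:**
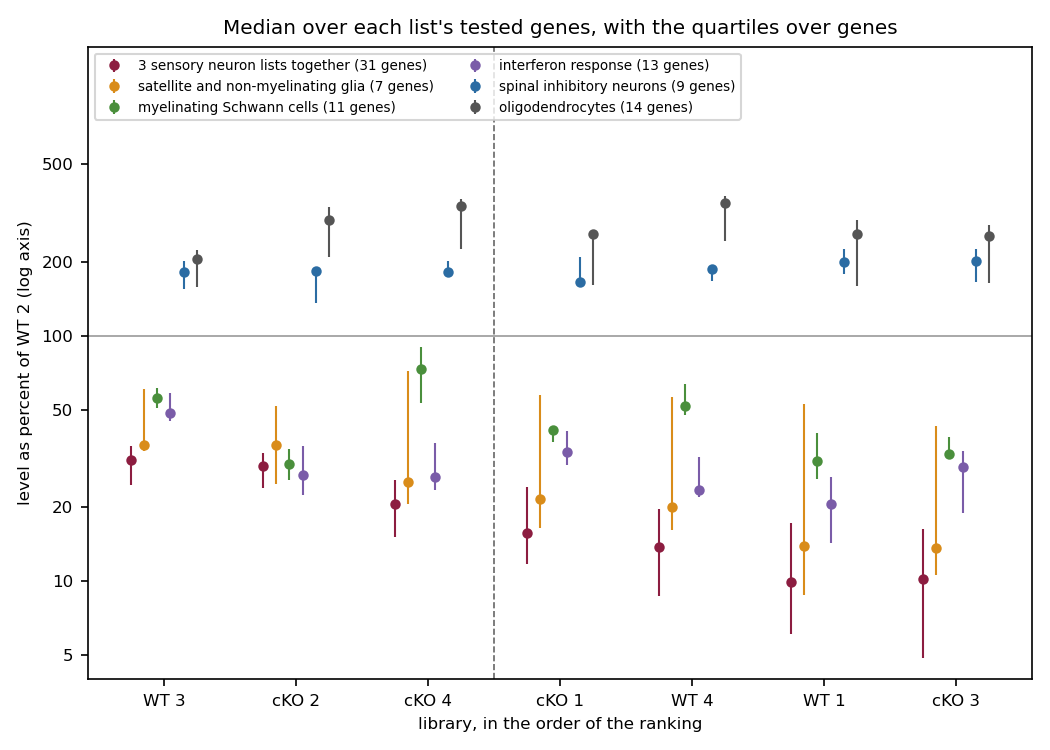
Level of each library as a percent of WT 2 (log axis), as the median over the tested genes of 6 lists with bars for the quartiles over genes, for the 7 other libraries in the order of the ranking, with a dashed line between rich and poor. Sensory genes go from 31.2% to 9.96%, Schwann cell genes peak in cKO 4 at 72.9%, and spinal and oligodendrocyte genes lie above the line at 100%.

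Spinal neuron markers were lower in the rich libraries, by little beyond WT 2. All 9 inhibitory neuron genes were lower, with a median of −0.32 on the log2 scale, and 7 of 9 without WT 2, with a median of −0.16. Slc6a5 had 234.2, 471.9, 447.5 and 495.2 CPM on the rich side and 490.5, 486.5, 527.7 and 536.1 CPM on the poor side. WT 2 was far below the rest and cKO 4 overlapped the poor range, with a log2 fold change of −0.12 ± 0.06 without WT 2. Gad1, which makes GABA, differed by −0.21 ± 0.07 and Gad2 by −0.17 ± 0.07 without WT 2. Pdyn, the prodynorphin gene of dorsal horn neurons, was the only member apart, with 8.01 to 26.9 CPM in the rich and 29.4 to 39.5 CPM in the poor libraries, and its fold without WT 2 (−0.49 ± 0.09) was under the minimum. Of 10 dorsal horn excitatory genes, 9 were lower, with a median of −0.34, and −0.17 without WT 2. Lmx1b, a factor of these neurons, differed by −0.24 ± 0.11 without WT 2, while Grp, gastrin-releasing peptide, was higher by 0.27 ± 0.16. Motor neuron genes such as Chat differed by −0.24 in the median, and by 0.01 without WT 2.

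Astrocyte genes were lower in all 13 cases, with and without WT 2, and by small amounts. Their median was −0.38, and −0.16 without WT 2, and none was apart. Slc1a2, the main glutamate transporter, had 878.4, 2145.7, 2507.9 and 2206.4 CPM on the rich side and 2251.2, 2288.1, 2687.5 and 2449.7 CPM on the poor side. The library that set the difference was WT 2, and cKO 2 was the second highest of 8. Agt, angiotensinogen, was lower by 0.31 ± 0.12 on the log2 scale without WT 2. Within genotypes without WT 2, the list differed by −0.32 in WT and −0.06 in cKO. Microglia genes differed by −0.02, and 0.05 without WT 2, and Hox genes, which mark position along the cord and ganglia, were lower in 13 of 14 cases, with −0.23, and −0.08 without WT 2.

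**Figure D4:**
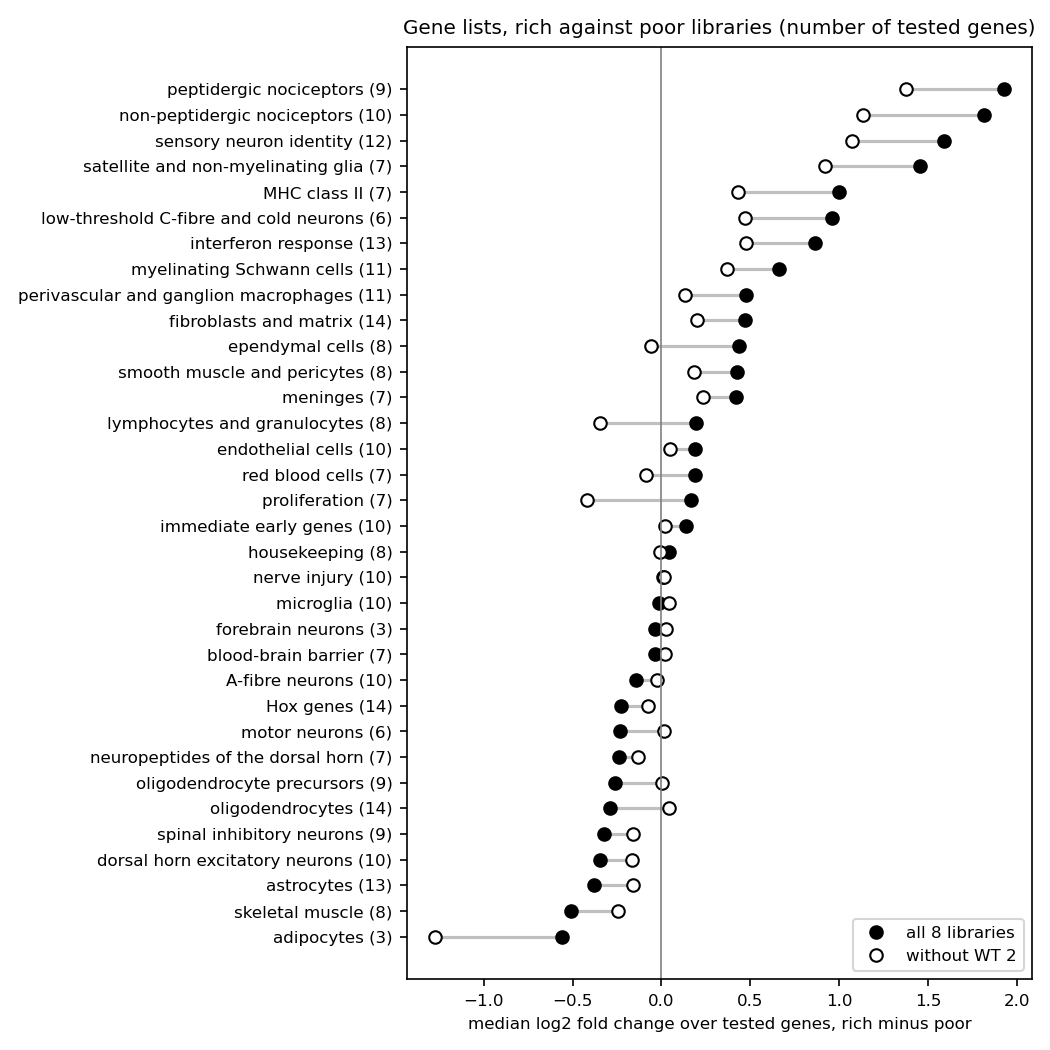
Median log2 fold change, rich minus poor, over the tested genes of each list (number in brackets), with all 8 libraries (filled) and without WT 2 (open), joined by a grey line. Without WT 2, peptidergic nociceptors are at 1.37 and satellite glia at 0.92, while astrocytes are at −0.16 and oligodendrocytes at 0.04.

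Interferon and antigen presentation genes were higher on the rich side within WT, while within cKO they were not. All 13 tested interferon-response genes were higher with and without WT 2, with a median of 1.82-fold (0.87), and 1.39-fold (0.48) without WT 2, and none was apart. Ifit1, an interferon-induced antiviral protein, had 84.1, 37.7, 17.3 and 12.3 CPM in WT 2, WT 3, cKO 2 and cKO 4, and 15.3, 10.6, 9.76 and 11.3 CPM in cKO 1, WT 4, WT 1 and cKO 3. WT 2 and WT 3 were high and the other 6 libraries overlapped. Within WT without WT 2, the list was higher by 1.19 in WT 3, and within cKO it differed by −0.01. MHC class II genes, which present antigen, did the same, with 1.19 in WT without WT 2 and −0.20 in cKO. H2-Aa had 29.3 CPM in WT 3 and 19.1 CPM in cKO 1, against 8.09 to 16.2 CPM in the other 5 libraries besides WT 2 (90.6 CPM). Both lists were highest in WT 2 and WT 3 on average, and among the cKO libraries in the poor cKO 1. For interferon genes cKO 1 was only slightly higher, with a mean log2(CPM + 1) of 3.91 against 3.68 in cKO 2 and 3.70 in cKO 4. WT 3 had 4.44. In cKO neither list followed the sensory gradient, where side and Y-linked transcripts were fully aligned. The difference between the genotypes was not tested for the lists.

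Macrophage, granulocyte and dividing-cell genes also depended on WT 2. All 11 macrophage genes were higher with it, with a median of 0.48, and 0.13 without it, and the median was 1.35 within WT, 0.51 within WT without WT 2 and −0.40 within cKO. Mrc1, the mannose receptor, had 32.9 CPM in WT 2, 16.7 CPM in WT 3 and 8.31 to 12.2 CPM in the others. S100a8, a granulocyte protein, had 521.7 CPM in WT 2, and without that library the highest was cKO 3 (215.1 CPM) and the lowest cKO 4 (98.7 CPM). Proliferation genes such as Mki67 and Top2a were higher by 0.17 with WT 2 and lower by a median of −0.42 without it, so that the direction flipped. Meningeal genes were higher in WT 2 and WT 3, with 1.11 within WT, 0.87 within WT without WT 2 and −0.39 within cKO. The retinoid enzyme gene Aldh1a2 had 28.8 and 21.3 CPM in these libraries and 6.59 to 16.6 CPM in the others.

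Connective tissue and vessels showed modest differences. Of 14 fibroblast genes, 12 were higher, with a median of 1.39-fold (0.47), and 1.15-fold (0.20) without WT 2. Col3a1, a fibrillar collagen, had 447.6, 143.6, 116.3 and 144.8 CPM in the rich libraries and 97.9, 126, 107.3 and 58.8 CPM in the poor ones. Its only overlap was cKO 2 below WT 4. Dcn, decorin, was 1345.5 CPM in WT 2 and 179.6 to 463.5 CPM elsewhere. Endothelial genes differed by a median of 0.19, and 0.05 without WT 2. Red blood cell genes differed by 0.19, and by −0.09 without WT 2, with haemoglobin gene Hbb-bs lowest in the rich library cKO 4 at 293.8 CPM.

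The remaining lists gave small or unstable differences. Nerve injury genes, which sensory neurons switch on after axon damage, had a median of 0.01, and 0.02 without WT 2. Atf3, the usual mark of an injured sensory neuron, had 8.13, 2.93, 2.37 and 1.88 CPM in the rich libraries and 2.15, 1.81, 1.52 and 1.07 CPM in the poor ones, with cKO 1 above cKO 4. Immediate early genes had a median of 0.14, and 0.02 without WT 2, and Egr1 was higher by 0.44 ± 0.12 without it. The 8 ependymal genes were all highest in WT 2, with a median of 0.44, and −0.06 without WT 2. Smooth muscle and pericyte genes had 0.43, and 0.18 without WT 2. The medians were −0.03 and 0.02 for the blood-brain barrier and −0.26 and 0.00 for oligodendrocyte precursors, with and without WT 2. Dorsal horn neuropeptide genes had −0.24, and −0.13 without WT 2. The 3 tested adipocyte genes, Fabp4 highest among them in WT 1 (11.5 CPM), had −0.56, and −1.27 without WT 2, and 0.15 with a term for Y-linked transcripts, so that the direction flipped. The 8 housekeeping genes had 0.04, and −0.01 without WT 2.

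**Figure D5:**
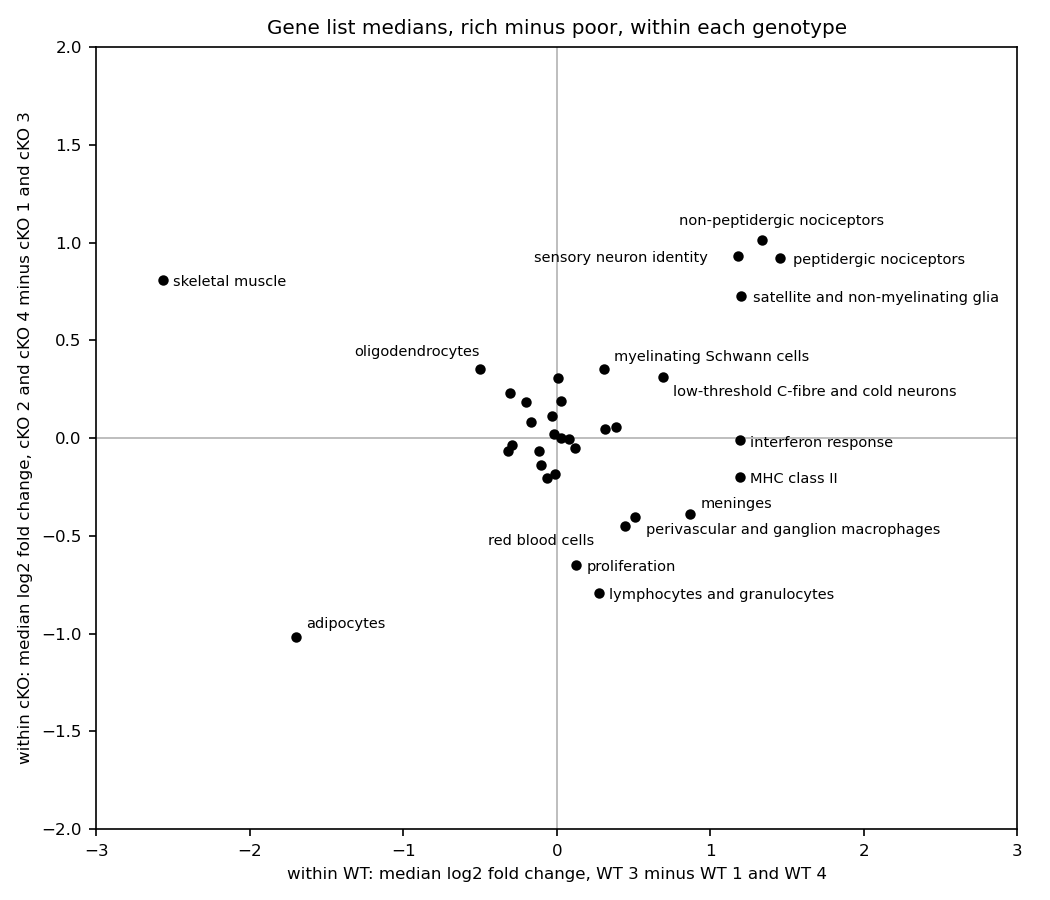
Each point is a gene list, placed by its median log2 fold change, rich minus poor, within WT without WT 2 (WT 3 against WT 1 and WT 4, horizontal) and within cKO (cKO 2 and cKO 4 against cKO 1 and cKO 3, vertical), which share no library. Non-peptidergic nociceptors are at 1.34 and 1.01, interferon genes at 1.19 and −0.01, and skeletal muscle at −2.57 and 0.81.

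The nociceptor, sensory identity and satellite glia lists were higher on the rich side within both genotypes. Within WT without WT 2, which sets WT 3 against WT 1 and WT 4, the medians were 1.34 for non-peptidergic nociceptors, 1.46 for peptidergic nociceptors, 1.18 for sensory identity and 1.20 for satellite glia. Within cKO, which shares no library with that, they were 1.01, 0.92, 0.93 and 0.73 in the same order. Side and Y-linked transcripts were fully aligned within cKO. Myelinating Schwann cell genes were higher within both, by 0.31 and 0.35, and the 3 adipocyte genes lower within both, with medians of −1.70 and −1.02. Of the 31 sensory genes, 31 were higher within WT without WT 2 and 29 within cKO. The sides had been selected on genes of the same cells. Skeletal muscle differed most between the genotypes, at −2.57 within WT and 0.81 within cKO, as WT 4 is a poor and cKO 4 a rich library. Oligodendrocyte genes differed by −0.50 within WT and 0.35 within cKO.

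Genes were also taken by the size of their difference, whether listed or not. With pseudogenes and predicted genes left out, 84 genes were apart and higher both ways and at 5 CPM or more on average. The 12 with the largest fold without WT 2 were Pirt, Trarg1, Tmem45b, Prdm12, Tmem233, Arhgap28, Acpp, Tmem79, Ngfr, P2rx3, Ppp1r1c and Trpa1. Of these, Pirt, Prdm12, Tmem233, P2rx3 and Trpa1 were members of the sensory lists and Ngfr of the satellite glia list. Pirt, a membrane protein that binds TRPV1 (chromosome 11, 66911905 to 66929877), had 292.3, 83.7, 73.1 and 46.3 CPM on the rich side and 30.2, 22.8, 11.9 and 10 CPM on the poor side. It led the list with a fold of 5.69, and 3.63 without WT 2, in the exact order of the ranking. Acpp, whose product makes adenosine on non-peptidergic nociceptors, had 210.3, 48.2, 51.6 and 29.2 CPM against 19.8, 16.1, 11 and 11.5 CPM. Trarg1, known in fat and muscle for glucose transporter traffic, had 207.9, 47.7, 42.8 and 33.4 CPM against 19.1, 14.1, 10.1 and 7.71 CPM. It also kept the order of the ranking over all 8 libraries. Tmem45b was apart with 1.68 ± 0.29 without WT 2 and Tmem233, a small membrane protein of sensory neurons, with 1.65 ± 0.31. Arhgap28, a RhoGAP, gave 1.56 ± 0.37, Tmem79 gave 1.55 ± 0.31, and Ppp1r1c, an inhibitor of protein phosphatase 1, gave 1.46 ± 0.32.

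Other genes apart both ways were picked after their values were seen. Asic3, the acid-sensing channel of sensory endings, had 15.2, 5.73, 4.79 and 4.12 CPM in the rich libraries and 1.77, 1.81, 1.52 and 0.56 CPM in the poor ones. Its log2 fold change without WT 2, 1.86 ± 0.29, equalled that of Pirt (1.86 ± 0.36). Slc17a7, the glutamate transporter VGLUT1, was listed as a forebrain marker and is also made by large sensory neurons. It had 22, 6.28, 7.73 and 6.25 CPM against 2.90, 3.11, 2.83 and 2.01 CPM, while the forebrain factor Emx1 was at 0 in 7 of 8 libraries. Sncg, gamma-synuclein, stood in the order of the ranking from 971.9 CPM in WT 2 to 115.3 CPM in cKO 3. Chrna6, a nicotinic receptor subunit of nociceptors, was apart with 1.37 ± 0.25 without WT 2, and Fxyd2, a regulator of the sodium pump, with 1.27 ± 0.29. The peptide gene Nmb was apart with 1.14 ± 0.23.

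Fewer genes were lower on the rich side. The rule for named genes took 3 of them, and none of the 3 belonged to a cell type list. Sgk3, a kinase of the serum- and glucocorticoid-induced family (chromosome 1, 9798130 to 9902570), had 27.9, 32.7, 28.9 and 54.1 CPM in WT 2, WT 3, cKO 2 and cKO 4, and 69.9, 67.1, 74.9 and 67.3 CPM in cKO 1, WT 4, WT 1 and cKO 3. The poor libraries were nearly level, and 3 of 4 rich ones were under 33 CPM, with WT 2 level with cKO 2. Mc5r, a melanocortin receptor, had 1.92, 4.21, 3.77 and 4.81 CPM against 7.20, 6.47, 8.90 and 7.71 CPM. Setdb2, a histone methyltransferase gene (chromosome 14, 59402009 to 59440880), had 5.75, 6.95, 8.69 and 7.44 CPM against 10.2, 9.40, 10.9 and 15.8 CPM. Both were apart, by −0.82 ± 0.16 and −0.63 ± 0.17 without WT 2.

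A further pair of lower genes, also picked after their values were seen, was level within each side. Wdfy1, a protein of early endosomes, had 46.3, 53.3, 54.5 and 57.8 CPM in the rich libraries and 81, 77.7, 75.3 and 74.1 CPM in the poor ones. Its fold change of −0.54 ± 0.07 was under the 1.5-fold minimum, yet its sides were separated by more than the range within either. H3c14, a histone H3 gene, was at 0 CPM in all 4 rich libraries and at 0.82, 1.06, 0.99 and 1.38 CPM in cKO 1, WT 4, WT 1 and cKO 3. Histone H3 genes have near-identical copies among which RSEM divides reads, so this value is uncertain. Evx1, a factor of spinal commissural neurons, was low throughout, with 0.51 to 1 CPM on the rich and 1.07 to 1.58 CPM on the poor side.

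Genotype comes from the labels and each side held 2 WT and 2 cKO libraries, so it was tested with side held. The gradient itself was not balanced, with rich-side ranking scores of 7.22 and 5.36 in WT and 5.14 and 4.60 in cKO. With side held, median log2 fold changes, cKO minus WT, were −0.79, −0.66 and −0.64 for non-peptidergic, peptidergic and sensory identity genes. Without WT 2 they were −0.06, −0.04 and −0.08. Holding the side thus did not remove the gradient while WT 2 was included. The edgeR quasi-likelihood test put 0 of 15089 genes past an adjusted p of 0.05 higher in cKO (0%) and 0 lower (0%), with 284 genes under an unadjusted p of 0.05. DESeq2 gave 0 higher and 1 lower, and limma on log2(TPM + 1) 0 in either direction. Alyref, the targeted gene, had 20.9, 25.7, 19.4 and 22.2 CPM in WT 1 to 4 and 21.7, 19.4, 20.1 and 20.7 CPM in cKO 1 to 4. The genotypes overlapped, with −0.11 ± 0.10 (edgeR adjusted p = 0.864) and an exact permutation p of 0.5 over the 36 assignments of genotype within sides, two-sided, for which 0.0556 is the smallest possible. No source used here names the deleted stretch of Alyref, and a count over the whole gene need not show the deletion. Ccn3, a matricellular protein of the CCN family, had 28.3, 78.2, 29.6 and 18.9 CPM in WT 1 to 4 and 17.4, 20.8, 16.9 and 13.6 CPM in cKO 1 to 4. Every WT library lay above its cKO counterparts on the same side, with −1.06 ± 0.38 (edgeR adjusted p = 0.864) and the smallest exact permutation p, 0.0556. Without WT 2 it was −0.59 ± 0.18 (edgeR adjusted p = 1), with an exact permutation p of 0.111. Without side as a term, the difference over all 8 libraries was −1.18 ± 0.41. Each side held as many WT as cKO libraries, so dropping the term could hardly move the estimate, and nothing is read from this.

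Without WT 2, 0 genes were higher in cKO (0%) and 1 of 15081 was lower (0.00663%) in the edgeR test, with 344 under an unadjusted p of 0.05. This was Capn11, a calpain protease gene known from the testis, at −2.77 ± 0.25 on the log2 scale (edgeR adjusted p = 0.0347). It had 8.70, 5.67 and 7.66 CPM in WT 1, WT 3 and WT 4, and 1.20, 0.45, 1.13 and 1.25 CPM in cKO 1 to 4. WT 2 had 0.70 CPM, within the range of the cKO libraries, and with it the edgeR adjusted p was 0.864. What sets WT 2 with the cKO libraries here was not tested. The interaction of genotype and side passed for 0 of 15089 genes (0%) by the edgeR test, with 1366 under an unadjusted p of 0.05 and a lowest adjusted p of 0.513. Without WT 2, when the rich WT side is WT 3 by itself and is assumed to vary like the other groups, 6 of 15081 genes passed (0.0398%). They were the myeloid genes Lyz2, Cybb and Mpo, the interferon-induced Sp100, ceruloplasmin (Cp) and the myelin gene Hapln2. Lyz2, lysozyme, had 140.4 CPM in WT 3 against 91.3 and 87.8 CPM in WT 1 and WT 4. In cKO it had 80.8 and 78.5 CPM in the rich libraries against 128.2 and 131.9 CPM in the poor ones. The cKO sides also differed fully in Y-linked transcripts.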

How the data were processed

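RNA was extracted with Trizol and made into mRNA libraries, per the labels' protocols. The strand setting was not stated. The deposited table holds estimated counts, FPKM, TPM and a normalized signal for 18560 genes, per the file headers. The submitters' processing notes name HISAT2 2.2.1, Bowtie2 2.4.5 and RSEM 1.3.1, with the builds GRCm38 and mm10, without saying how each was used. RSEM divides reads between near-identical genes by estimation. The deposited TPM ranked the libraries, FPKM and CPM served to check the ranking, and the signal was not tested.

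Estimated counts were rounded and fitted with edgeR 4.0.16 in R 4.3.3 (filterByExpr, 15098 genes, TMM, quasi-likelihood, Benjamini-Hochberg) with side and genotype as terms. The procedure was tested on simulated data. The ranking and Y-linked genes were then left out (15089 remained). DESeq2 1.42.0 and limma 3.58.1 on log2(TPM + 1) were alternatives.

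The members, the ranking genes and the 35 lists (322 genes) were chosen with earlier results of these data known. Named genes were the first 4 to 6 members of each list and members against its direction, at most 12 genes per direction of largest fold without WT 2 (apart and at least 1.5-fold with and without it, mean of at least 5 CPM, no predicted genes), and Alyref and Ccn3. Other list members were picked as examples after their values were seen. Deviations from the genotype means correlated between same-numbered WT and cKO libraries at 0.01, 0.04, −0.04 and 0.25. Such values cannot exclude a shared batch or day. No label says that the numbers pair the samples, so they were not treated as pairs. Positions are those that RefSeq gives on GRCm38.p6. Some genes of the lists are not reported here.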

Additional observations from a re-analysis of the deposited data

Results flagged for a closer look

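Among the 4 WT libraries, WT 2 lay far from the other 3 in 3 of the 35 lists, by Dixon's ratio on mean log2(CPM + 1). Chance picks out about 1 in 20 groups in this way, and 3 of 35 lists is near that share. The lists share their libraries and some genes, so they are not independent. The share of lists therefore does not measure how far WT 2 stands apart. Spinal inhibitory neuron genes averaged 5.02 in WT 2 against 5.87 to 6.04 in the other WT libraries. Dorsal horn excitatory neuron genes averaged 2.90 in WT 2 against 3.75 to 3.79. Smooth muscle and pericyte genes averaged 4.28 in WT 2, the highest, against 3.57 to 3.66.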

How the results depend on the processing

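Counts between the sides moved with the model. By edgeR with the ranking score as a continuous term, 2050 genes higher and 1556 lower with the score were past an adjusted p of 0.05. Without WT 2, a choice made after seeing the data, these were 169 and 8. The score was measured in the same libraries, so genes that follow the ranking genes are bound to be counted. Nothing is read from these counts. DESeq2 gave 34 higher and 4 lower, limma on log2(TPM + 1) gave 1 lower, and the 2-sided edgeR fit gave 0 to 1 lower when each library was left out, with 1 when cKO 4 was. Genes apart and higher ranged from 145 (without WT 2) to 486 (without cKO 4) with each library left out, with 420 without cKO 1 and 436 without cKO 2, and were 703 with no fold minimum and 138 at 2-fold. Genes apart and lower ranged from 26 to 77 (without cKO 4), with 64 without WT 3, 48 without WT 4, 45 without cKO 1, 51 without cKO 2 and 39 without cKO 3, and were 62 with no filter on low counts, 556 with no fold minimum and 4 at 2-fold. For genotype with side held, lower genes were 0 to 1 with each library left out (1 without WT 2), 1 by DESeq2, and 1 with the score as a continuous term without WT 2. The interaction gave 6 genes without WT 2. With the replicate block, which no label supports, 0 genes passed for side or for genotype, Alyref and Ccn3 were at −0.10 and −0.98, and the medians of non-peptidergic nociceptors, satellite glia, C-fibre and cold neurons and proliferation moved to 0.98, 0.73, 0.49 and −0.41. A term for Y-linked transcripts moved astrocyte and oligodendrocyte medians to −0.71 and −0.84, ependymal genes to 1.03 and adipocyte genes to 0.15, where only the adipocyte median turned its sign. Over all alternatives, 497 list medians kept within their spread and 13 moved. The cause of these moves was not tested. Genes under 1 CPM are limited by counting error.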
